A study of Mus musculus with 32 samples.

Results

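The 7 genes described here encode connexins of bladder muscle, vessels and urothelium, namely Gja1, Gjc1, Gja4, Gja5, Gjb2, Gjb5 and Gjb6. They were chosen by symbol, and each matched exactly 1 of the 32285 rows of the raw count table through its Ensembl identifier. Total RNA was sequenced from 32 whole bladders of female C57BL/6 mice, with 1 library per bladder. Young mice were 2 months old (n = 6), middle-aged mice 10 months old (n = 5) and all old mice 26 months old. The old mice were left untreated (n = 6), or were gavaged with water (n = 5), with vehicle (n = 4), or with D + Q (n = 6), which is dasatinib at 5 mg/kg/day plus quercetin at 50 mg/kg/day, a drug pair meant to clear senescent cells. Vehicle was Phosal 50 PG with polyethylene glycol and ethanol, and D + Q was dissolved in it. Rounds of 3 consecutive days of gavage were given monthly from 21 to 26 months of age, and the mice then rested for some days before use. All groups were of 1 sex and 1 inbred strain, and because whole bladders were used every value is a sum over muscle, urothelium, vessels and connective tissue.

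Connexins are membrane proteins that assemble as hexamers, and a hexamer docks with one in the neighbouring cell to form a gap junction channel that passes ions and small metabolites. In the bladder wall, gap junctions couple detrusor smooth muscle cells and interstitial cells and are known to affect how excitation spreads during filling and voiding, while those of the urothelium and of vessel walls join epithelial and endothelial cells. Gja1 encodes Cx43, the connexin best known from bladder muscle and suburothelial cells, and Gjc1 encodes Cx45, a connexin of smooth muscle and vascular mural cells. Gja4 (Cx37) and Gja5 (Cx40) are connexins of arterial endothelium. Gjb2 (Cx26), Gjb5 (Cx31.1) and Gjb6 (Cx30) are epithelial connexins, known best from skin and the inner ear.

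Every connexin crosses the membrane 4 times, and the first of its extracellular loops carries 3 cysteines that are needed for docking between cells. The coding bases of that stretch are shown because they mark all 7 genes as members of a single family and show how far its members differ there. The 36 bases below run 5′ to 3′, were read in frame from the longest coding sequence of each gene in the GENCODE M21 transcripts, and carry the 3 cysteine codons in capitals.
Gja1: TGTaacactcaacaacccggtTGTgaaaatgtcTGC
Gjc1: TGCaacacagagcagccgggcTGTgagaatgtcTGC
Gja4: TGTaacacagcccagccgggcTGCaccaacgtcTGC
Gja5: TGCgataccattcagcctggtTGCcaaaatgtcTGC
Gjb2: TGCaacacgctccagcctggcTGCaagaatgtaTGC
Gjb5: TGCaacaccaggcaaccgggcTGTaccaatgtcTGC
Gjb6: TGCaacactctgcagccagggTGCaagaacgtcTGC
The cysteine codons begin at codon 54 in Gja1, Gja4 and Gja5 and at codon 53 in the other members, and the spacing was found once in each coding sequence. Gjb2 and Gjb6 were the most alike, with 30 of 36 bases in common, and the least alike pair had 23. Over all 21 pairs of whole coding sequences the longest identical run was 26 bases, between Gja1 and Gja4, and that of Gjb2 and Gjb6 was 20 bases.

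In mm10, Gja1 (ENSMUSG00000050953) lies on chromosome 10 from 56377330 to 56402513 on the plus strand and Gjc1 (ENSMUSG00000034520) on chromosome 11 from 102799579 to 102819700 on the minus strand. Gja4 (ENSMUSG00000050234, chromosome 4, 127311421 to 127314039, minus) lies 40769 bases from Gjb5 (ENSMUSG00000042357, chromosome 4, 127354809 to 127358181, minus). Gjb2 (ENSMUSG00000046352, chromosome 14, 57098600 to 57104702, minus) and Gjb6 (ENSMUSG00000040055, chromosome 14, 57123303 to 57133611, minus) lie 18600 bases apart. Gja5 (ENSMUSG00000057123, chromosome 3, 96904693 to 97077416, plus) shares 165 exon bases with Gpr89 on the other strand. The strand setting of the counting is not given in the sources used here, so reads from those bases cannot be assigned to either gene with certainty, and the counts of Gja5 carry that uncertainty. No other member shares exon bases with another gene.

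Promoters from RefSeq (GRCm38.p6) were matched for 6 of the 7 members, not for Gjc1. Gja1 and Gjb5 were called lower from young to middle-aged bladders and Gjb6 from middle-aged to untreated old ones, so these promoters are shown. Each holds the 250 bases before the RefSeq start on the gene's own strand, 5′ to 3′, with matches to any of 5 searched motifs in capitals. That start lies upstream of the gene start given above for Gja1. For Gjb5 it lies inside the gene as given above, so part of its stretch does too. Distances below are from the RefSeq start.
Gja1, chr10:56377050-56377299, plus strand: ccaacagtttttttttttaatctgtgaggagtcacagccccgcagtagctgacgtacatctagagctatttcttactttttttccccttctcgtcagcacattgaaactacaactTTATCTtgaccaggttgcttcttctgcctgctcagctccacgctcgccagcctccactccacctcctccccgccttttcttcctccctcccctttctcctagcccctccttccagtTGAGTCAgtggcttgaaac
Gjb5, chr4:127358165-127358414, minus strand: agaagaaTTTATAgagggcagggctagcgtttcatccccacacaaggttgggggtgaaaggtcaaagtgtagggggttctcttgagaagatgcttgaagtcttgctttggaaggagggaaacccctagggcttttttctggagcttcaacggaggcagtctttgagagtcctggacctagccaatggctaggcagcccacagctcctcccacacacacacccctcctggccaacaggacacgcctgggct
Gjb6, chr14:57133612-57133861, minus strand: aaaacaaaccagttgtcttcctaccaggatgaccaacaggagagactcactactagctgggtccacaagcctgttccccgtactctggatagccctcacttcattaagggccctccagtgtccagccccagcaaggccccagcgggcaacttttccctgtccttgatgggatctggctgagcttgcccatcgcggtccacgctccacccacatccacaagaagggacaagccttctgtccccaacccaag
The motifs were searched on both strands and no match overlapped another. They were the AP-1 site TGANTCA, the GC box GGGCGG, the TATA box TATAAA, the GATA motif AGATAA and the CArG box of serum response factor. The Gja1 promoter held an AP-1 match from 19 to 13 bases before the start and a GATA match from 135 to 130 bases before it. AP-1 matches occur in 6.75% and GATA matches in 9.99% of the 32807 promoters of this length. The Gjb5 promoter held a single match, to the TATA box, from 243 to 238 bases before the start, a motif found in 12.4% of promoters, and the Gjb6 promoter held no match. GC boxes, found in 32.7% of promoters, were matched in those of Gja4, Gja5 and Gjb2 (2 matches), and no member's promoter held a CArG box, which is found in 1.47% of promoters. A match is a run of letters only and was not tested as a binding site.

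The summed counts were 15088372 to 52650259 per bladder, and the lowest count of any member in any bladder was 56, for Gjb5. A floor of 3 counts stood at 0.0570 to 0.199 CPM, which are counts scaled to a fixed library total, and all members were above it in all 32 bladders. CPM were scaled by the trimmed mean of M values (TMM) over all 6 groups. The 2 shallowest libraries of all were young bladders 3 and 4, and the comparisons with young bladders were also made without them, with the same calls among the members except that Gjb2 then passed from young to middle-aged (log2 0.35, adjusted p = 0.0466). Smooth muscle markers (Acta2, median 9632 TPM) and urothelial markers (Upk1a, median 3285 TPM) were high in these bladders. Nothing in the labels gives a sequencing batch, so no value within batches can be given. Nothing says more than that the libraries came from separate bladders, and p-values measure the spread between these bladders.

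Levels were compared between genes only per gene length, as TPM, which scales counts by gene length within a bladder. With the summed exon length of the count table, Gjb6 was the highest member with 76.4 ± 7.72 TPM (SD, n = 32), above every other member in all 32 bladders. Gjc1 followed with 19.3 ± 2.62 TPM, Gja4 with 16.7 ± 2.51 TPM, Gjb2 with 16.2 ± 2.10 TPM and Gja1 with 14.0 ± 1.71 TPM. These 4 neighbours overlapped in range, and Gja4 was above Gjb2 in only 17 of 32 bladders. Gjb5 with 5.58 ± 1.74 TPM and Gja5 with 2.69 ± 0.491 TPM were lowest, and Gjb5 was above Gja5 in all 32 bladders.

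The order depended on the length used for Gja1, whose exons sum to 10257 bases over all transcripts, against 3182 bases in its longest transcript with a complete coding sequence. With that transcript length Gja1 had 45.1 ± 5.51 TPM and moved from rank 5 to rank 2, close to Gjc1 with 41.7 ± 5.65 TPM, which it exceeded in 26 of 32 bladders. Gjb6 stayed highest with 97.1 ± 9.80 TPM. With it Gjb5 and Gja5 (4.97 ± 0.908 TPM) could no longer be put in order, since Gjb5 was the higher in 18 of 32 bladders. Summed over the 7 members with exon lengths, the level was 163 ± 4.84 TPM in young (n = 6), 162 ± 6.31 TPM in middle-aged (n = 5) and 143 ± 8.59 TPM in untreated old bladders (n = 6). The untreated old bladders (132 to 154 TPM) lay below all young (156 to 169 TPM) and all middle-aged bladders (156 to 170 TPM). In CPM, which do not scale by gene length, the summed level was 161 to 176 in young and 152 to 167 in middle-aged bladders. It was 139 to 158 CPM in untreated old bladders, so that the middle-aged and old ranges overlapped. Gjb6 alone made up 47.6%, 53.4% and 50.9% of the TPM sum on average in young, middle-aged and untreated old bladders.

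**Figure D1:**
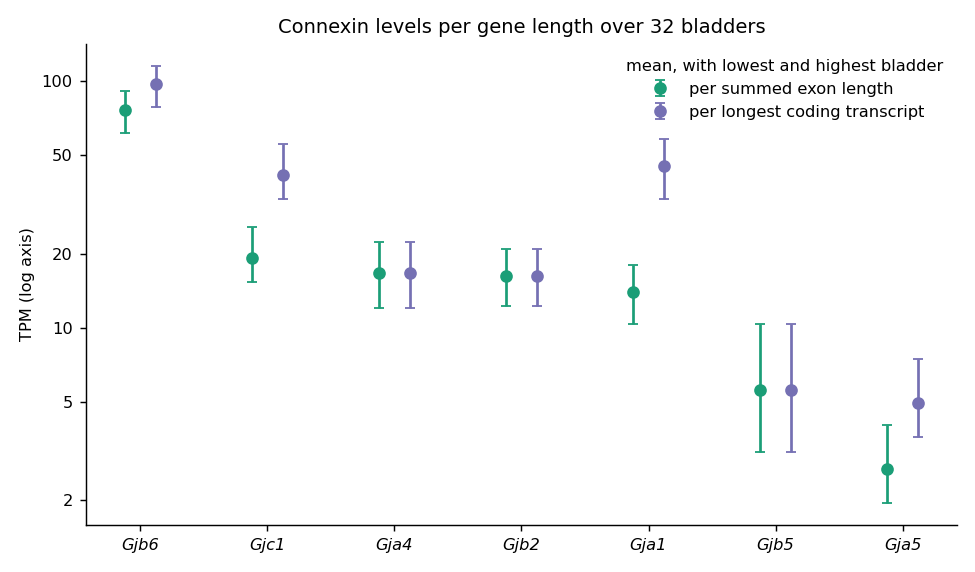
Level of each connexin in TPM on a log axis, per summed exon length and per length of the longest coding transcript. Points are means over 32 bladders and bars run from the lowest to the highest bladder, and Gjb6 is highest with either length (76.4 and 97.1 TPM) while Gja1 moves from 14.0 to 45.1 TPM.

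Ages were compared with edgeR's quasi-likelihood test, and a gene was called where its Benjamini-Hochberg adjusted p over all genes tested was under 0.05. Between young and middle-aged bladders 3 of 7 members were called lower (Gjb5, Gja1 and Gjc1) and none higher, where 5.85% of 16754 genes were called lower, 4.96% higher and 10.8% in all. The members' median log2 fold change was -0.25, beside 0.00278 over all genes. In whole bladders, fewer cells of a type and less RNA per cell cannot be told apart, here and in every result that follows. Between middle-aged and untreated old bladders 1 of 7 (Gjb6) was called lower, where 11% of 17156 genes were called lower and 24% in all, so this share was near that of all genes. With limma on log2(TPM + 1) the split over all genes of that comparison moved from 2231 higher and 1879 lower to 1627 higher and 2391 lower. Across the whole span from young to untreated old, 4 of 7 (Gjb5, Gjc1, Gja4 and Gja1) were called lower, where 12.4% of 16873 genes were called lower and 25.1% in all. With library totals in place of TMM factors the split of that comparison over all genes moved from 2134 higher and 2095 lower to 2540 higher and 1478 lower. The 3 comparisons share groups of bladders, and their values for the members are given side by side below. The shares of all genes called in each also stand beside the counts of marker and related genes below.

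**Figure D2:**
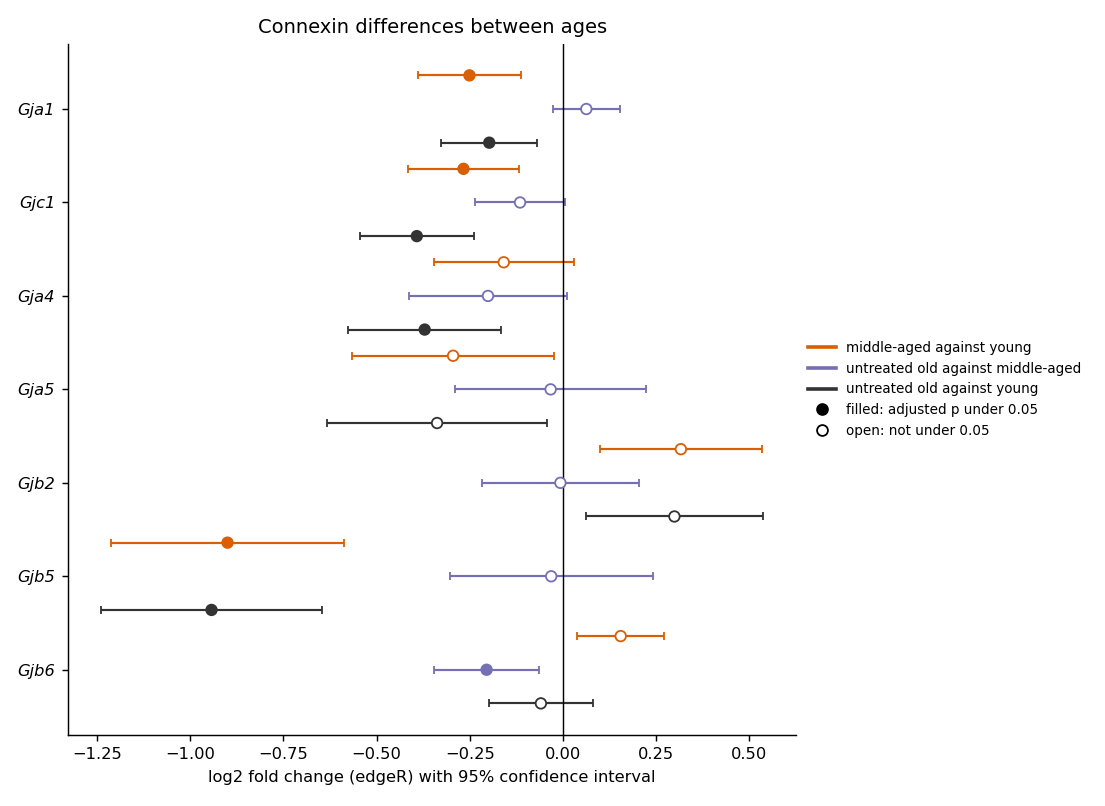
Log2 fold change of each connexin in the 3 age comparisons, with 95% confidence intervals, filled where the adjusted p was under 0.05. Gjb5 shows the largest change, -0.90 from young to middle-aged bladders and -0.03 from middle-aged to untreated old ones, and Gjb6 is the only filled point between middle-aged and untreated old bladders.

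Gjb5, an epithelial connexin of skin and other stratified epithelia, had the largest age difference of the members. It ranged from 3.23 to 5.16 CPM in the young bladders, with a median of 4.19 CPM. The 5 middle-aged bladders had 1.83, 2.31, 2.35, 2.58 and 2.01 CPM. The untreated old bladders ranged from 1.72 to 2.61 CPM, with a median of 2.23 CPM. All middle-aged and all untreated old bladders therefore lay below the lowest young bladder, and the middle-aged and untreated old ranges overlapped. On the log2 scale the change was -0.90 (SE 0.146, adjusted p = 0.00348) from young to middle-aged, with groups that did not overlap, as for 6.92% of all genes. From middle-aged to untreated old it was -0.03 (SE 0.126, adjusted p = 0.885), with a 95% confidence interval from -0.30 to 0.24. From young to untreated old it was -0.94 (SE 0.138, adjusted p = 0.000270). Gjb5 passed the test in both comparisons with young bladders under every alternative tried.

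Values of epithelial marker lists stood as follows beside the fall of Gjb5. Of 5 basal urothelial markers, 1 (Krt14) was called lower and none higher between young and middle-aged bladders, and their summed level was 747 to 893 CPM in young and 700 to 913 CPM in middle-aged bladders. Of 8 urothelial markers, 2 (Foxa1 and Epcam) were called higher and none lower. Of 7 markers of cornified stratified epithelium 5 were tested, 1 (Lor) was called higher, and the summed level was 281 to 411 CPM in young and 297 to 415 CPM in middle-aged bladders. Krt6a and Dsg1a of that list had a median count of at most 3. Single genes made up most of these sums, Krt5 (median 821 TPM) in the basal list and Ivl (median 594 TPM) in the cornified list. The part of these markers in the difference of Gjb5 was not tested.

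Gjb6 encodes Cx30, and was the most abundant member. It ranged from 54.8 to 63.4 CPM in the young bladders, with a median of 59.6 CPM. The middle-aged bladders had 64.3, 62.0, 68.8, 69.7 and 62.4 CPM. The untreated old bladders had 65.5, 55.9, 54.2, 56.9, 48.5 and 59.9 CPM, with 5 of 6 below the lowest middle-aged bladder. The middle-aged mean was thus the highest of the 3 ages. The fitted log2 value was 0.16 (SE 0.0543, adjusted p = 0.0838, not called) from young to middle-aged and -0.20 (SE 0.0655, adjusted p = 0.0380) from middle-aged to untreated old bladders. From young to untreated old it was -0.06 (SE 0.0649, adjusted p = 0.563), with a 95% confidence interval from -0.20 to 0.08. The call for the later step was lost when middle-aged bladder 1, 3 or 4 or untreated old bladder 2, 3, 4 or 5 was left out, with log2 fold changes from -0.16 to -0.22 and adjusted p from 0.0513 to 0.0793. The rise in the earlier step passed only without young bladder 5 (log2 0.18, adjusted p = 0.0497).

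Urothelial markers stood beside the fall of Gjb6 between middle-aged and untreated old bladders as follows. Of 8 markers, 5 (Upk1a, Upk2, Upk3a, Cdh1 and Epcam, genes of the urothelial plaque and of epithelial adhesion) were called lower and none higher. Their summed level was 3985 to 4435 CPM in middle-aged and 3604 to 3941 CPM in untreated old bladders, which did not overlap. The basal urothelial list did not fall with them. It summed to 700 to 913 CPM in middle-aged and 720 to 988 CPM in untreated old bladders, which overlapped. The part of these markers in the difference of Gjb6 was not tested. Of 6 leukocyte markers, 5 were called higher in the same comparison, with a summed level of 127 to 148 CPM in middle-aged and 244 to 407 CPM in untreated old bladders, and their part was not tested either.

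Gjb2, which encodes Cx26, was the only member higher in untreated old than in young bladders by sign, and its call depended on the setting. It ranged from 8.04 to 11.5 CPM in young bladders (median 9.35 CPM) and from 10.2 to 14.4 CPM in untreated old bladders (median 11.0 CPM). The middle-aged bladders had 11.4, 11.2, 12.4, 13.2 and 10.5 CPM. The middle-aged and old ranges thus both overlapped the upper end of the young one. The fitted log2 change was 0.32 (SE 0.101, adjusted p = 0.0604) from young to middle-aged, -0.01 (SE 0.0968, adjusted p = 0.972) from middle-aged to untreated old and 0.30 (SE 0.111, adjusted p = 0.0641) from young to untreated old. It passed from young to middle-aged without young bladder 2 (log2 0.38, adjusted p = 0.0301), and from young to untreated old without the same bladder (log2 0.36, adjusted p = 0.0271), which had the highest Gjb2 level of the young group. It also passed in 6 of 9 other settings from young to middle-aged and in 3 of 9 from young to untreated old. The neighbouring genes Gjb2 and Gjb6 thus differed in sign between young and untreated old bladders, 0.30 and -0.06, and that difference between genes was not tested.

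Gja1, best known from bladder muscle and suburothelial cells, ranged from 41.0 to 53.1 CPM in the young bladders, with a median of 48.4 CPM. The middle-aged bladders had 40.8, 38.4, 37.9, 39.9 and 42.3 CPM. The untreated old bladders had 41.2, 41.3, 41.1, 45.5, 40.0 and 40.9 CPM. Of the middle-aged bladders 4 of 5, and of the untreated old bladders 2 of 6, lay below the lowest young bladder. Its change on the log2 scale was -0.25 (SE 0.0646, adjusted p = 0.0272) from young to middle-aged, 0.06 (SE 0.0413, adjusted p = 0.302) from middle-aged to untreated old and -0.20 (SE 0.0596, adjusted p = 0.0266) from young to untreated old. The earlier call was lost without young bladder 6 or middle-aged bladder 1, 2, 3 or 5 (log2 -0.23 to -0.27, adjusted p 0.0503 to 0.0754). That from young to untreated old was lost without young bladder 3, 5 or 6 or untreated old bladder 1, 2, 3, 5 or 6 (log2 -0.17 to -0.19, adjusted p 0.0517 to 0.0629).

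Gjc1, the connexin of smooth muscle and mural cells, ranged from 28.7 to 37.8 CPM in young bladders, with a median of 33.9 CPM. The middle-aged bladders had 26.5, 25.7, 27.7, 28.1 and 29.6 CPM. The untreated old bladders had 26.2, 23.3, 24.8, 28.6, 25.3 and 24.4 CPM, all below the lowest young bladder on this scale. The group means of Gjc1 thus stood lower at each later age, and the middle-aged range overlapped both others. On the log2 scale the change was -0.27 (SE 0.0695, adjusted p = 0.0287) from young to middle-aged, -0.11 (SE 0.0554, adjusted p = 0.156) from middle-aged to untreated old and -0.39 (SE 0.0710, adjusted p = 0.00125) from young to untreated old. The last passed under every alternative, while the first was lost without young bladder 1 or 6 or middle-aged bladder 1, 2 or 3 (log2 -0.24 to -0.27, adjusted p 0.0604 to 0.0757). The step from middle-aged to untreated old passed only without untreated old bladder 4 (log2 -0.15, adjusted p = 0.0426).

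Smooth muscle markers stood beside these differences as follows. Of 8 markers, 1 (Myocd, a coactivator of smooth muscle genes) was called lower from young to middle-aged bladders, 3 (Myh11, Smtn and Myocd) from middle-aged to untreated old and 4 (Acta2, Cnn1, Smtn and Myocd) from young to untreated old, and none was called higher. Their summed level was 24564 to 39552 CPM in young, 25468 to 35365 CPM in middle-aged and 26059 to 30021 CPM in untreated old bladders, which overlapped. Of 4 fibroblast markers, 2 (Col1a1 and Lum) were called lower from young to middle-aged bladders, and their summed level of 6887 to 11349 CPM in young bladders lay above the 5091 to 6068 CPM of middle-aged ones. Endothelial markers, the list most like Gja1 over bladders, summed to 300.4 to 327 CPM in young and 262 to 288 CPM in middle-aged bladders, which did not overlap. Markers of pericytes and mural cells, the list most like Gjc1, summed to 694 to 818 CPM in young, 753 to 778 CPM in middle-aged and 680 to 803 CPM in untreated old bladders, which overlapped. Of these 5 markers, 1 (Abcc9) was called higher from young to middle-aged and none lower. The part of any of these lists in the differences of Gja1 and Gjc1 was not tested.

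Of the vascular connexins, Gja4 was called lower in untreated old than in young bladders and Gja5 did not pass. Gja4, the Cx37 of arterial endothelium, ranged from 8.71 to 10.7 CPM in young bladders, with a median of 9.52 CPM. The middle-aged bladders had 7.93, 8.37, 9.88, 8.40 and 7.85 CPM. The untreated old bladders ranged from 6.19 to 8.54 CPM, with a median of 7.56 CPM. All untreated old bladders thus lay below the lowest young one, and middle-aged bladders overlapped both. Its log2 fold change was -0.16 (SE 0.0872, adjusted p = 0.263) from young to middle-aged, -0.20 (SE 0.0984, adjusted p = 0.163) from middle-aged to untreated old and -0.37 (SE 0.0955, adjusted p = 0.0118) from young to untreated old, the last with groups that did not overlap, as for 12.7% of all genes, and passing under every alternative.

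Gja5, the Cx40 of arterial endothelium, ranged from 4.25 to 6.59 CPM in young (median 5.28 CPM) and from 3.23 to 5.25 CPM in untreated old bladders (median 4.05 CPM). The middle-aged bladders had 4.05, 4.22, 4.63, 4.77 and 3.80 CPM, and the 3 ranges overlapped. The fitted log2 change of -0.34 from young to untreated old (SE 0.137, adjusted p = 0.0897) was close to that of Gja4 in size but did not pass. It passed without young bladder 5 (log2 -0.40, adjusted p = 0.0492) or untreated old bladder 3 (log2 -0.41, adjusted p = 0.0496). From young to middle-aged it was -0.29 (SE 0.126, adjusted p = 0.150) and from middle-aged to untreated old -0.03 (SE 0.118, adjusted p = 0.871).

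Endothelial markers stood beside these values as follows. Of 6 endothelial markers, 2 (Pecam1 and Cdh5, adhesion molecules of endothelial junctions) were called lower from young to middle-aged bladders and 4 from young to untreated old, with none higher. The summed level was 300.4 to 327 CPM in young, 262 to 288 CPM in middle-aged and 235 to 272 CPM in untreated old bladders, and the young range lay above both others. Of 5 arterial markers, 2 (Efnb2 and Hey1) were called lower from young to untreated old, with a summed level of 102 to 117 CPM in young and 95.7 to 101 CPM in untreated old bladders. The part of these markers in the differences of Gja4 and Gja5 was not tested.

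**Figure D3:**
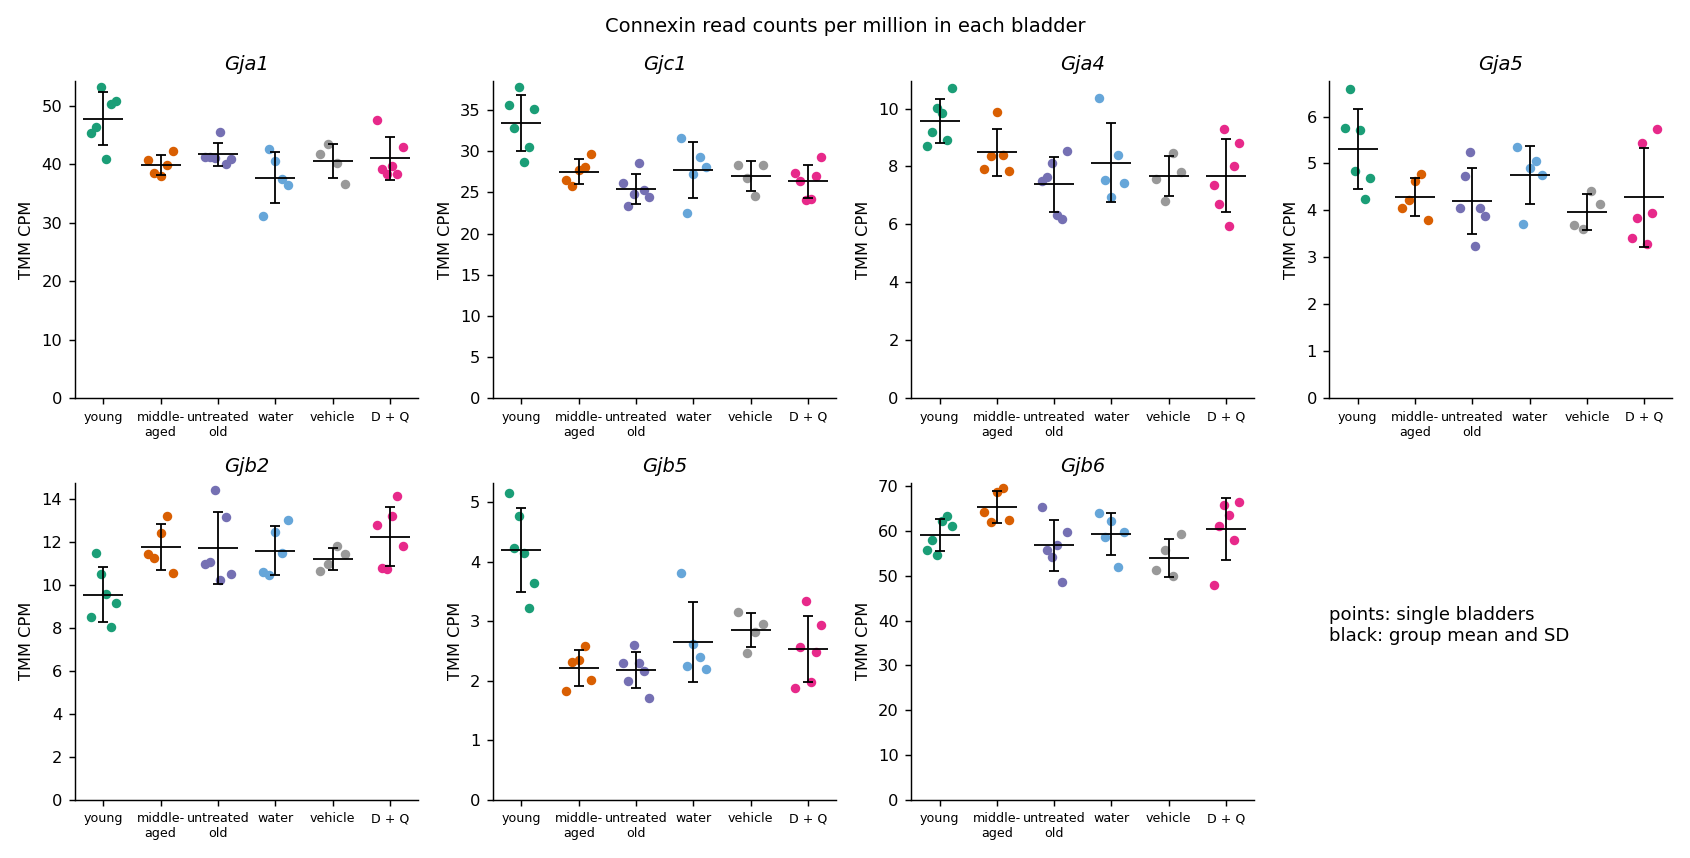
TMM CPM of each connexin in every bladder of the 6 groups, with the group mean and SD in black. The axes start at 0 and differ between genes. Gjb5 is above 3 CPM in all young bladders and below it in all middle-aged and untreated old ones, and Gjb6 is highest in the middle-aged group.

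Whether the early and the late step differed for a gene was tested directly, as the change from middle-aged to untreated old minus the change from young to middle-aged in an edgeR fit of the 3 ages, a test that was chosen after the data were seen. It was called for 2 of 7 members, where 10.8% of 17376 genes were called. The difference was 0.89 (SE 0.248, adjusted p = 0.0299) for Gjb5 and 0.33 (SE 0.101, adjusted p = 0.0425) for Gja1. Gjc1, also called lower in the early step, had a difference of 0.17 (SE 0.121, adjusted p = 0.391) and was not called. For Gjb6 it was -0.34 (SE 0.110, adjusted p = 0.0559), which missed the threshold. It passed without young bladder 4 or 5 or untreated old bladder 1 (log2 -0.36 to -0.40, adjusted p 0.0215 to 0.0416), with DESeq2 (adjusted p = 0.0293) and without TMM factors (adjusted p = 0.0465). For Gja4 it was -0.02 (SE 0.166, adjusted p = 0.955). The call for Gjb5 was lost without middle-aged bladder 1, 2, 3 or 5 (adjusted p 0.0586 to 0.0926), and that for Gja1 was lost in 14 of the 17 fits without a single bladder (adjusted p up to 0.121 without middle-aged bladder 3).

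The groups of old mice were compared to ask whether D + Q, its vehicle, or gavage alone moved the connexins. No member was called in any of the 6 comparisons, and the groups overlapped for every member in each. Groups that did not overlap were found for 0.622% of all genes between D + Q and untreated bladders and for 2.98% between water-treated and untreated ones. The share was 2.17% for vehicle against untreated, 1.10% for D + Q against vehicle, 1.28% for D + Q against water and 0.682% for vehicle against water. With edgeR 0% of genes were called for D + Q against no treatment, where 2200 of 17037 genes had an unadjusted p under 0.05 and DESeq2 called 29 genes higher and 146 lower. Between water-treated and untreated old bladders 1% of 17250 genes were called, 0.487% higher and 0.516% lower. In that comparison 2760 genes had an unadjusted p under 0.05, and DESeq2 called 274 higher and 373 lower. A single fit of all 6 groups called 0 genes, as did limma on log2(TPM + 1) and on log2(TPM + 0.1). Between vehicle-treated and untreated old bladders 0% of 17440 genes were called, where 1464 had an unadjusted p under 0.05 and DESeq2 called 75 higher and 48 lower. In the comparisons of D + Q with vehicle, D + Q with water and vehicle with water 0% were called, with 722, 1342 and 322 genes at an unadjusted p under 0.05. DESeq2 called 8 genes higher and 2 lower in the first of these, 60 higher and 4 lower in the second and 0 in the last. The 6 comparisons share bladders, so their values are given side by side and are not counted as separate support.

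In D + Q-treated against untreated old mice the members' log2 fold changes ran from -0.02 (Gja1) to 0.22 (Gjb5). For Gjb5 the D + Q-treated bladders had 1.87, 2.57, 3.33, 1.97, 2.49 and 2.94 CPM, and the untreated old bladders 2.29, 2.00, 2.61, 2.30, 2.16 and 1.72 CPM. The 2 groups overlapped, and the interval of the difference was -0.10 to 0.54 (adjusted p = 0.534). For Gjb6 the D + Q-treated bladders had 47.9, 61.1, 65.9, 63.7, 58.0 and 66.5 CPM, with 1 bladder below every untreated one and 2 above them. The log2 difference from untreated old bladders was 0.09, with an interval of -0.09 to 0.27. The intervals were narrower for Gja1, at -0.14 to 0.10, and for Gjc1, at -0.08 to 0.18. They were wider for Gja4, at -0.20 to 0.31, and for Gja5, at -0.32 to 0.37. Median counts over all bladders were 1441.5 for Gja1 and 960.5 for Gjc1, beside 259.5 for Gja4 and 143 for Gja5. Gjb6 had the highest median count of the members, 2003.5, and a wider interval than Gja1 and Gjc1. The part of the counts in the width of the intervals was not tested. For Gjb2 the interval was -0.15 to 0.27.

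Among these comparisons the lowest unadjusted p of any member was that of Gjb5 between vehicle-treated and untreated old bladders. The vehicle-treated bladders had 3.16, 2.47, 2.82 and 2.95 CPM, with 3 of 4 above the highest untreated old bladder. Its change on the log2 scale was 0.39 (SE 0.132) with an interval of 0.10 to 0.68, and the adjusted p was 0.499. Water-treated bladders had 3.81, 2.25, 2.62, 2.40 and 2.19 CPM, a log2 difference of 0.28 from untreated old bladders, with an interval of -0.07 to 0.62. Between D + Q-treated and vehicle-treated bladders the log2 difference of Gjb5 was -0.18, with an interval of -0.55 to 0.20. The gavaged bladders thus stayed mostly under the young range, with 13 of 15 below the lowest young bladder.

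The other members were set against the ranges of younger bladders in the same way. Gjb6 was below the lowest middle-aged bladder in 10 of 15 gavaged bladders and above the highest in none of them. Gja4 and Gjc1 were each below the lowest young bladder in 12 of 15, and Gja1 in 10 of 15. Gja1 reached its lowest level of the series, 31.2 CPM, in water-treated bladder 1, and ran up to 47.6 CPM in gavaged bladders, against 40.0 to 45.5 CPM in untreated old ones. The water-treated group had a log2 fold change of -0.14 for Gja1 against untreated old bladders, with an interval of -0.29 to 0.01 (adjusted p = 0.346).

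**Figure D4:**
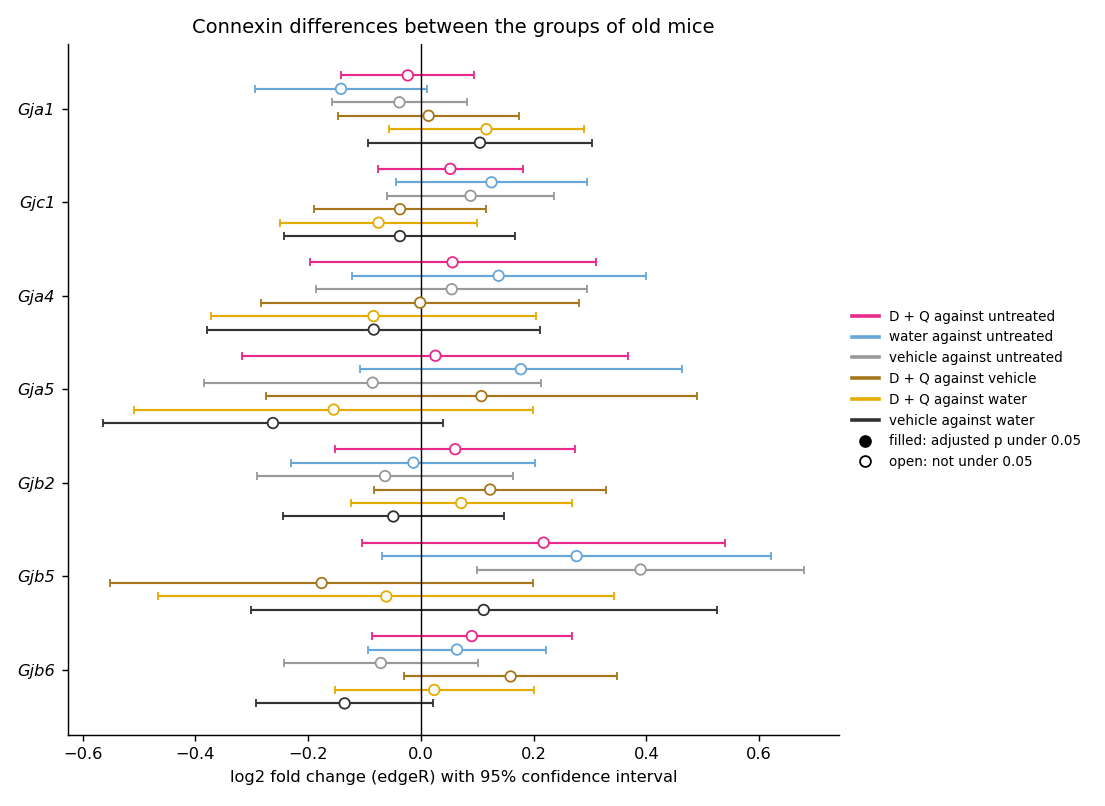
Log2 fold change of each connexin in the 6 comparisons among old mice, with 95% confidence intervals, and open points mark an adjusted p not under 0.05. All points are open, and the interval of Gjb5 in vehicle-treated against untreated old bladders, 0.10 to 0.68, is the only one that does not include 0.

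Of 16 other connexins and pannexins, the related channel proteins, 5 passed the filter on low counts in the comparison of untreated old with middle-aged bladders. Gjc3, a connexin of glia, was the only one called lower from middle-aged to untreated old bladders (log2 -0.56, adjusted p = 0.0259), at 0.762 to 1.05 CPM in the untreated old bladders. None was called higher in that comparison. Gjd2, a connexin of neurons, had 0 counts in every bladder, which allows a level of up to the floor given above and covers counting error only, and 9 of the 16 had a median count of at most 3.

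Of 11 partners of gap junctions (scaffold, trafficking and turnover proteins), all tested, none was called from young to middle-aged bladders. From middle-aged to untreated old bladders 1 of 11 was called, where 24% of 17156 genes were called. It was Nedd4, a ubiquitin ligase that acts on Cx43, with a log2 fold change of -0.12 (adjusted p = 0.0273). Its groups did not overlap, as for 14.5% of all genes.

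Likeness between genes was described by correlating log2 CPM over the 32 bladders after removing each group's mean, among 15055 genes. Bladders share library depth and makeup, so these correlations are descriptions. The gene most like Gja1 was Adgrf5, an adhesion receptor of endothelium (r = 0.72), followed by Cdkl3 and Rbsn. Gja4 was most like Sema3g, a semaphorin of arterial endothelium (r = 0.67), then Fam89b and Myg1, and Gja5 was most like Txn1 (r = 0.76), then Ap2s1 and Ly6c1. Gjb2 was most like Rin1 (r = 0.76), then Sec14l1 and Lama1. Gjb5 was most like Scp2 (r = 0.73), then Uqcc2 and Pdrg1. Gjb6 was most like Slc5a1, a sodium-glucose transporter (r = 0.79), then Gm13398 and the sodium-proton exchanger Slc9a2. Gjc1 was most like Arhgap1 (r = 0.80), then Rrn3 and Msrb3. Without the 2 bladders farthest from the median of the member, r with the leading gene was 0.62 for Sema3g and 0.79 for Arhgap1, the lowest and the highest of the 7.

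Against marker lists, Gjb6 varied most closely with the urothelial list (r = 0.63) and Gjc1 with the mural list (r = 0.62) and the smooth muscle list (r = 0.56). Gjb6 also had r = 0.50 with the arterial list and -0.34 with the basal urothelial list. Gja1 had r = -0.18 with the smooth muscle list and 0.46 with the endothelial list. Gja4 had r = 0.41 with the Schwann cell list, its highest, 0.36 with the arterial list and 0.31 with the endothelial list. Gja5 had r = 0.37 with the skeletal muscle and the smooth muscle lists, 0.30 with the arterial list and 0.17 with the endothelial list. It had r = -0.43 with the interstitial cell list. Gjb2 had r = -0.62 with the 2 markers of interstitial cells, and Gjb5 had at most 0.44, with the list of cornified epithelium. Among members, Gja5 was most like Gjb5 (r = 0.64) and Gja4 (r = 0.57), and Gja1 had r = -0.49 with Gja5 and -0.45 with Gjb5. Gja1 and Gjc1 had r = 0.07 with each other, and the neighbours Gjb2 and Gjb6 had r = -0.28.

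**Figure D5:**
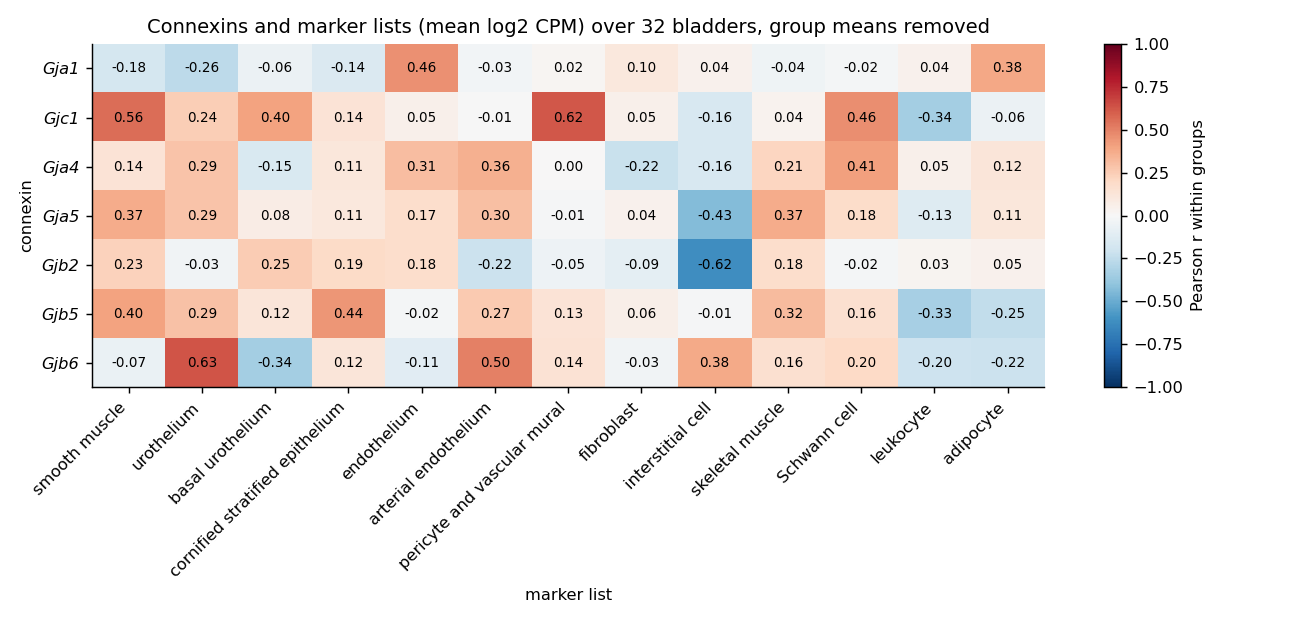
Pearson r between each connexin and the mean log2 CPM of each of 13 marker lists over 32 bladders, with group means removed. Red marks positive and blue negative values, and the highest are Gjb6 with urothelium (0.63) and Gjc1 with the mural list (0.62).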

How the data were processed

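Total RNA of 32 bladders was prepared with a stranded total RNA kit and sequenced on a NextSeq, with 1 library per bladder. The authors aligned reads to mm10 with STAR 2.7.3 and counted them per gene with featureCounts of Subread, and the deposited raw counts are not normalized. The strand setting of the counting is not given in the sources used here. The deposited normalized values are log2 of counts plus 1, divided by gene length and scaled to a fixed sum. They were used to check TPM levels and as the TPM of the limma alternatives. The summed exon length in bases is another deposited column and served for TPM.

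From the counts, TMM CPM and edgeR 4.0.16 quasi-likelihood tests were computed in R 4.3.3, after filterByExpr and within the 2 groups compared, with Benjamini-Hochberg adjustment over all genes tested and a threshold of 0.05. Intervals are 95% confidence intervals. Alternatives were no filter, at least 10 counts in every bladder, library totals without TMM, a single fit of all 6 groups, limma (3.58.1) on log2(TPM + 1) and log2(TPM + 0.1), DESeq2 1.42.0, the replicate number as a block, and fits that each omitted 1 bladder. The transcript-length TPM, the test between the age steps with its alternatives, and the fits without the 2 shallowest young bladders were chosen after seeing the data. The edgeR test was also run on simulated counts, with the same spread set for all genes and changes larger than those of most members. That run does not show how the test performs on smaller changes.

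The 7 members, the marker lists and the tests were chosen with earlier results of these data known. The members are named throughout. Other connexins and partners are named where called in an age step, and the genes most like a member by the rank of r. Where a marker list is described, its called genes are named, except the leukocyte markers and the endothelial markers called from young to untreated old. Some of the results on other connexins are not reported here. Libraries totalled 15088372 to 52650259 counts, and no replicate pair agreed within sampling noise (chi-square per degree of freedom 5.70 to 87.5). Groups and replicate numbers came from the sample titles. For 3 middle-aged, 1 water-treated and 2 vehicle-treated bladders the descriptions in the labels carry another number.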

Additional observations from a re-analysis of the deposited data

Results flagged for a closer look

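Among 42 sets of bladders (7 connexins in 6 groups), 3 held a bladder whose gap to its nearest neighbour was large for the range of its group by Dixon's criterion, where chance gives about 1 in 20. Gja1 had 45.5 CPM in untreated old bladder 4, above the next highest at 41.3 CPM, and the gap took 0.766 of the range (critical value 0.625, n = 6). Gja4 had 9.88 CPM in middle-aged bladder 3, above the next at 8.40 CPM, with a gap of 0.726 of the range (critical value 0.710, n = 5). Gjb5 had 3.81 CPM in water-treated bladder 1, from 72 counts, above the next at 2.62 CPM, with a gap of 0.737 of the range (critical value 0.710, n = 5).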

How the results depend on the processing

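Of 644 recomputed log2 fold changes, 549 kept their direction and side of the threshold, 56 kept direction but lost the call, 20 gained one and 19 changed sign. With the replicate number as a block, 1 member (Gjb5) was called from young to middle-aged instead of 3, and from young to untreated old Gja1 missed the threshold (adjusted p = 0.0683). The block changed no other call among the members. Deviations of bladders with the same number had r over 0.1 in 1 of 5 pairs from young to middle-aged (at most 0.12). From young to untreated old this held for 2 of 6 pairs (at most 0.17). Bladders most like the one of their own number were 1 of 5 and 3 of 6 in these comparisons. The labels say nothing of a pairing, and the numbers were not read as pairs. The block used the numbers in the titles, which differ from those in the descriptions for some middle-aged, water-treated and vehicle-treated bladders, and the other numbering was not tested. The block moved the calls over all genes from 831 higher and 980 lower to 318 and 393 from young to middle-aged, and from 173 to 0 between water-treated and untreated old bladders. In the fit of all 6 groups 0 members were called from middle-aged to untreated old, and 1 for the difference of the age steps, where leaving out the filter gave 0. Without single bladders, 1 to 4 members were called from young to middle-aged, 0 to 1 from middle-aged to untreated old, 3 to 5 from young to untreated old, 0 to 3 for the difference of the steps and 0 in the treatment comparisons. Without TMM factors Gja1 missed the threshold from young to middle-aged (adjusted p = 0.0567) and to untreated old (adjusted p = 0.0991). All sign changes were of values near 0. For untreated old against middle-aged, Gjb2 was 0.014 and Gjb5 0.034 under the block. Without single bladders Gjb2 ran from -0.071 to 0.034, Gjb5 from -0.096 to 0.028 and Gja5 from -0.10 to 0.032. For D + Q against no treatment, Gja5 was -0.014 and -0.020 with limma on log2(TPM + 1) and log2(TPM + 0.1). Without single bladders Gja5 ran from -0.076 to 0.099, Gja1 from -0.069 to 0.0042 and Gja4 from -0.0043 to 0.12. The cause of these changes was not tested.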
